A study of Mus musculus with 12 samples.

Results

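The metalloproteinase genes described here are the mouse matrix metalloproteinases (*Mmp*), the membrane-bound disintegrin metalloproteinases (*Adam*), their secreted relatives with thrombospondin repeats (*Adamts*) and the tissue inhibitors of metalloproteinases (*Timp*). They were chosen by gene name alone, as every row whose symbol is one of these prefixes followed by a number. The rule used no measured value, though earlier results of these data were known when it was set. The rule found 80 genes among 55487 gene models, made up of 23 *Mmp*, 34 *Adam*, 19 *Adamts* and 4 *Timp* genes. RNA was measured in bone-marrow-derived macrophages (BMDMs), which are grown from marrow in L929 cell-conditioned medium, and the question was which transcripts depend on RasGEF1b, a guanine nucleotide exchange factor for the small GTPase Rap2. Groups of 3 libraries each came from KO macrophages given LPS at 100 ng/ml for 4 h, WT macrophages given the same LPS, untreated KO macrophages and untreated WT macrophages. KO stands for Rasgef1b-fl/fl;CMVcre mice, in which Cre driven by the ubiquitous CMV promoter had removed part of *Rasgef1b* in all cells, and WT for wild-type mice, all young adults of the C57BL/6 strain. The WT mice were supplied by a separate animal facility and are not described as littermates, so that genotype and source of the mice cannot be told apart.

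Metalloproteinases are zinc enzymes made as inactive precursors. Secreted *Mmp* enzymes cut collagens, elastin, gelatin and other matrix proteins, and membrane-type *Mmp* enzymes do so at the cell surface and can activate other precursors there. *Adam* enzymes release the outer parts of membrane proteins, the best known case in macrophages being the release of tumor necrosis factor by ADAM17, and *Adamts* enzymes cut proteoglycans, procollagens and von Willebrand factor. TIMP proteins bind the active site and block it, so the balance of enzyme and inhibitor sets how much cutting takes place. Transcript levels, which are what was measured here, do not show whether an enzyme was activated or blocked.

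Values are normalized counts, that is reads per gene divided by 1 size factor per library. The libraries held 19316691 to 24977356 reads in genes. *Rasgef1b* had 3618 to 4192 normalized counts in LPS-treated KO libraries, against 11844 to 12554 in LPS-treated WT libraries, and 545 to 695 in untreated KO libraries, against 2001 to 2171 in untreated WT libraries. The deletion takes out only part of the gene, so the remaining reads can come from the rest of the transcript. All 11 macrophage markers had a mean of at least 10 in every group. Replicate 2 of the untreated KO libraries stood apart, with 5.06% of its reads in 1 ribosomal RNA gene, against at most 0.0874% in the other libraries.

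Of the 80 genes, 28 had a mean of at least 10 normalized counts over the 12 libraries, and 52 lay under it, the highest of them at 6.77. No read was found in any library for 13 genes, among them *Mmp7*, *Mmp1b*, *Adam12* and *Adamts18*. The expressed genes were 12 of 23 *Mmp*, 9 of 34 *Adam*, 5 of 19 *Adamts* and 2 of 4 *Timp* genes. Most of the *Adam* genes without reads or with few reads belong to groups known from the testis (*Adam18*, *Adam24*, *Adam26a*, *Adam26b*, *Adam34*). Related pairs (*Mmp1a* and *Mmp1b*, *Adam1a* and *Adam1b*, *Adam6a* and *Adam6b*, *Adam26a* and *Adam26b*) may share sequence that the counting could split, so their values are uncertain. Exons of *Adam1a* also share 4779 bases with *Gm42878* and 1805 with *Mapkapk5* on the same strand. The 80 genes together took 0.479% to 0.736% of the normalized counts of a library, and *Mmp12*, *Mmp13* and *Adam8* made up 62.1% to 75.5% of that sum.

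Per kilobase of exon, the level of *Mmp13* in LPS-treated macrophages stood above that of all other members. Its mean was 22750 normalized counts per kb in KO LPS and 29808 in WT LPS macrophages, against 476 in KO untreated and 518 in WT untreated macrophages. In untreated macrophages the order of levels per kb began with *Adam8* (5854 in KO, 6740 in WT), *Mmp12* (5441 in KO, 4188 in WT), *Timp2* (2189 in KO, 2680 in WT) and *Adam9* (1258 in KO, 1259 in WT). *Adam8* and *Mmp12* could not be ranked in untreated KO macrophages, since *Mmp12* varied from 23777 to 55888 normalized counts among the 3 libraries. Further down, *Adam10* had 615 normalized counts per kb in untreated KO and 613 in untreated WT macrophages.

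**Figure D1:**
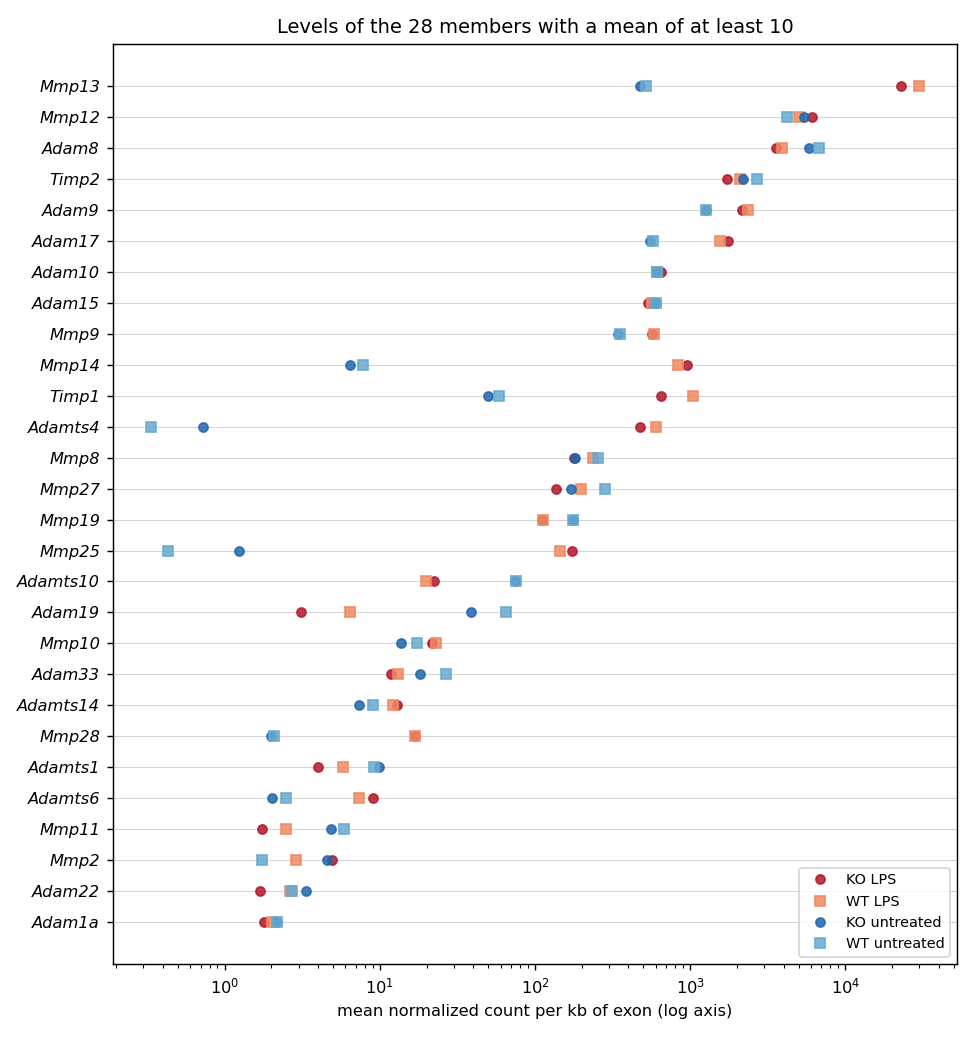
Mean normalized count per kb of exon (log axis) of the 28 members with a mean of at least 10, 1 symbol per group of 3 libraries. Symbols of LPS-treated and untreated macrophages lie far apart for *Mmp13*, *Mmp14*, *Timp1*, *Adamts4* and *Mmp25*, while symbols of KO and WT macrophages lie close together for most members.

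LPS changed a small set of members strongly, and nearly the same set in both genotypes. A member was called changed at an adjusted p under 0.05 in limma and a change of at least 2-fold. In KO macrophages 8 of 27 members tested were called higher and 2 lower, and in WT macrophages 8 of 27 were called higher and 3 lower. The same 8 were called higher in both genotypes: *Adamts4*, *Mmp25*, *Mmp14*, *Mmp13*, *Timp1*, *Mmp28*, *Adamts6* and *Adam17*. Of these, *Adamts4*, *Mmp25* and *Mmp28* had untreated means under 10. They passed the filter on low counts only through their LPS-treated libraries, so being tested was tied to their rise. The counts are therefore descriptive, and the background holds genes admitted in the same way. *Adam19* and *Adamts10* were called lower in both, and *Adam33* in WT macrophages. These counts stand against a background of 17.3% of all tested genes called higher and 16.6% called lower in KO macrophages, and 17.1% called higher and 16.9% called lower in WT macrophages. The median log2 fold change of the members was 0.20 in KO and -0.01 in WT macrophages, beside -0.01 and -0.02 over all genes tested. When the fold threshold was dropped and the adjusted p kept, 10 members were higher and 8 lower in KO macrophages (background 36.3% and 35.7%), and 10 were higher and 7 lower in WT macrophages (background 36.7% and 36.6%).

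**Figure D2:**
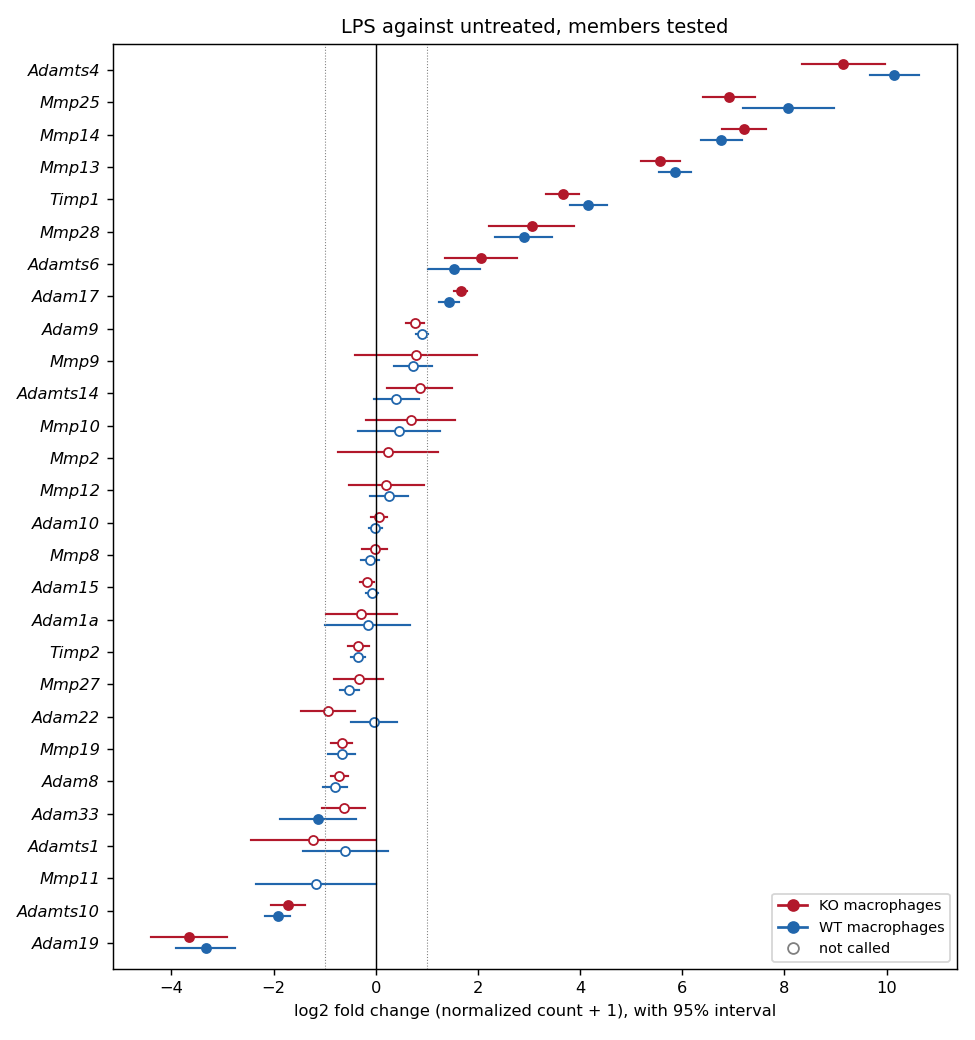
Log2 fold change after LPS in KO (upper symbol) and WT (lower symbol) macrophages for the 28 members tested in either genotype, with 95% intervals. Filled symbols are called members and open symbols are not called, dotted lines mark a 2-fold change, and the 8 members called higher lie between 1.43 and 10.15 on the log2 scale.

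Among the collagenases, which open the triple helix of fibrillar collagen, *Mmp13* rose and *Mmp8* did not. *Mmp13* (ENSMUSG00000050578) had 74356, 50150.5 and 57923 normalized counts in the KO LPS libraries, against 1134, 1549 and 1136 in the KO untreated ones. In WT macrophages it had 87810.1, 78822 and 72396 after LPS, against 1659, 1415 and 1083 untreated. Each LPS library was thus above each untreated library by a wide margin, and the log2 fold change was 5.57 (SE 0.16) in KO and 5.86 (SE 0.14) in WT macrophages, with adjusted p 1.459e-08 and 1.082e-09 in limma. This took *Mmp13* to 29.0% to 43.7% of the summed counts of all 80 genes in KO LPS libraries and 42.6% to 43.9% in WT LPS libraries, against 1.19% to 1.45% in untreated KO libraries and 1.25% to 1.66% in untreated WT libraries. *Mmp8*, the collagenase first known from neutrophils, changed by -0.02 in KO (adjusted p 0.8873) and -0.11 in WT macrophages (adjusted p 0.2157).

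The gelatinases cut denatured collagen and basement membrane collagen. *Mmp9* had 979.7, 3048 and 1967 normalized counts in KO LPS libraries, against 499, 1989.9 and 1156 in KO untreated libraries. In WT libraries it had 2518, 2051 and 1659.6 after LPS, against 1509, 1203 and 1027 untreated. The KO libraries overlapped between conditions and the WT libraries did not. The log2 fold changes of 0.78 in KO (adjusted p 0.2039 in limma) and 0.73 in WT macrophages (adjusted p 0.002975) were both below the fold threshold. Libraries with the same replicate number moved alike, with a difference of 0.97, 0.61 and 0.77 on the log2 scale in KO and 0.74, 0.77 and 0.69 in WT macrophages, and with replicate number as a block the adjusted p was 1.49e-05 and 3.264e-06 in limma. *Mmp2*, the other gelatinase, was near the detection limit, with at most 25.4 normalized counts in any library.

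*Mmp12*, the macrophage elastase, was abundant under both conditions. Its values were 30329, 58825 and 43597 in KO LPS libraries, against 23777, 55888 and 38475 in KO untreated libraries. In WT macrophages they were 43731, 38155 and 27868 after LPS, against 34077, 31846 and 25003 untreated. The change was 0.20 in KO and 0.26 in WT macrophages on the log2 scale, with adjusted p 0.59 and 0.1873 in limma. Between libraries of the same number it was 0.35, 0.07 and 0.18 in KO and 0.36, 0.26 and 0.16 in WT macrophages, and with replicate number as a block the adjusted p was 0.02168 and 0.001904, still under the fold threshold. Quantile normalization turned the direction, to -0.73 in KO and -0.74 in WT macrophages. KO replicate 2 was highest and KO replicate 1 lowest for both *Mmp12* and *Mmp9*, in untreated and in LPS-treated libraries. The stromelysin *Mmp10* was low, with 30.2, 53.6 and 28.6 normalized counts in KO LPS against 13.4, 34.2 and 22.9 in KO untreated libraries, and was not called. *Mmp11*, a stromelysin that is activated inside the cell, had 2.81, 6.82 and 11.1 normalized counts in WT LPS libraries, against 9.00, 14.5 and 25.5 in WT untreated ones. Its log2 fold change of -1.17 had an adjusted p of 0.06876, which became 0.01901 with replicate number as a block. Without WT untreated replicate 1 or WT LPS replicate 3 it was also called, at -1.51 and -1.55.

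Both membrane-type enzymes that were tested rose after LPS. *Mmp14*, a transmembrane collagenase and activator of pro-MMP2, had 6392, 4739 and 5872 normalized counts in KO LPS libraries, against 37.4, 28.2 and 48.7 in KO untreated libraries. In WT libraries it had 5362, 4825 and 4769 after LPS, against 60.2, 44.9 and 33.5 untreated. The change was 7.20 (SE 0.19) in KO and 6.76 (SE 0.18) in WT macrophages on the log2 scale, with adjusted p 7.913e-09 and 1.727e-09 in limma. *Mmp25*, a membrane-type enzyme held by a lipid anchor and first known from leukocytes, had 1166, 710.0 and 882 normalized counts in KO LPS libraries, against 7.05, 7.70 and 5.01 in KO untreated libraries. In WT macrophages it had 788, 719 and 792 after LPS, against 1.38, 0.66 and 4.78 untreated. Its log2 fold changes were 6.91 (SE 0.22) and 8.08 (SE 0.39), with adjusted p 2.38e-08 in KO and 9.094e-08 in WT macrophages. The untreated level of *Mmp25* rests on 26 reads over the 3 KO libraries and 9 reads over the 3 WT libraries, so that the size of the WT change depends on the constant added before the logarithm. The other 4 membrane-type genes, *Mmp15*, *Mmp16*, *Mmp17* and *Mmp24*, stayed under the filter on low counts.

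Of the remaining secreted *Mmp* genes, *Mmp28* rose and *Mmp19* and *Mmp27* were not called. *Mmp28* (epilysin), which carries a furin cleavage site, had 70.2, 57.5 and 68.1 normalized counts in KO LPS against 12.7, 5.99 and 4.30 in KO untreated libraries, a log2 change of 3.05 (adjusted p 7.322e-05 in limma). In WT macrophages it had 67.6, 61.4 and 66.8 after LPS against 6.23, 9.90 and 7.97 untreated, a change of 2.89 (adjusted p 4.288e-06). LPS-treated and untreated libraries did not overlap in either genotype. *Mmp19* changed by -0.66 in KO and -0.67 in WT macrophages (adjusted p 0.0001629 and 0.0007429 in limma). *Mmp27* changed by -0.34 in KO (adjusted p 0.178, and 0.01882 with replicate number as a block) and by -0.51 in WT macrophages (adjusted p 0.0003523), and its KO libraries overlapped between conditions. Exons of *Mmp28* and *Mmp19* share 466 and 789 bases with genes on the opposite strand (*1700020L24Rik* and *Tmem198b*), whose reads cannot be told apart without strand.

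**Figure D3:**
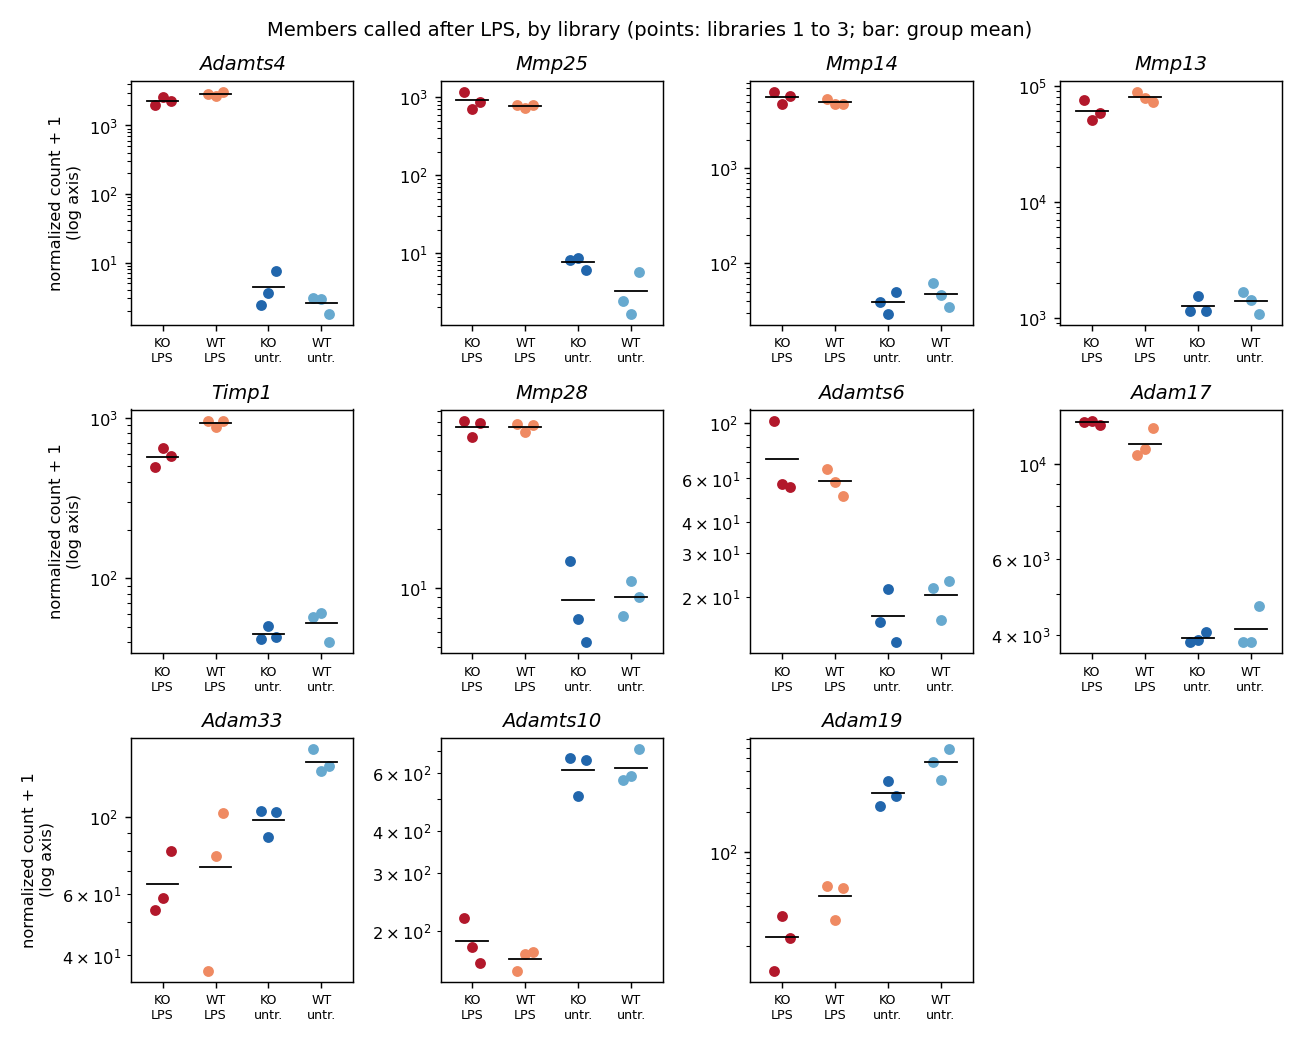
Normalized counts plus 1 (log axes that differ between panels) in each of the 12 libraries for the 11 members called after LPS in WT macrophages, with groups from left to right KO LPS, WT LPS, KO untreated and WT untreated. LPS-treated libraries lie apart from untreated ones within each genotype in all panels, and the lowest WT LPS point of *Adam33* is replicate 1, at 35.2.

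Of the 23 *Mmp* genes, 10 lie side by side on chromosome 9, in a stretch of 427.1 kb (chr9:7272514-7699585, GRCm38). In their order along the chromosome they are *Mmp13*, *Mmp12*, *Mmp1b*, *Mmp3*, *Mmp1a*, *Mmp10*, *Mmp8*, *Mmp27*, *Mmp20* and *Mmp7*. Of the 10 genes, 5 had a mean of at least 10 normalized counts (*Mmp13*, *Mmp12*, *Mmp8*, *Mmp27* and *Mmp10*), 2 had no read (*Mmp1b* and *Mmp7*), and *Mmp3*, *Mmp1a* and *Mmp20* had 1, 3 and 1 reads over all libraries. *Mmp13*, at one end of the cluster, was the only one of the 10 that was called after LPS in either genotype.

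**Figure D4:**
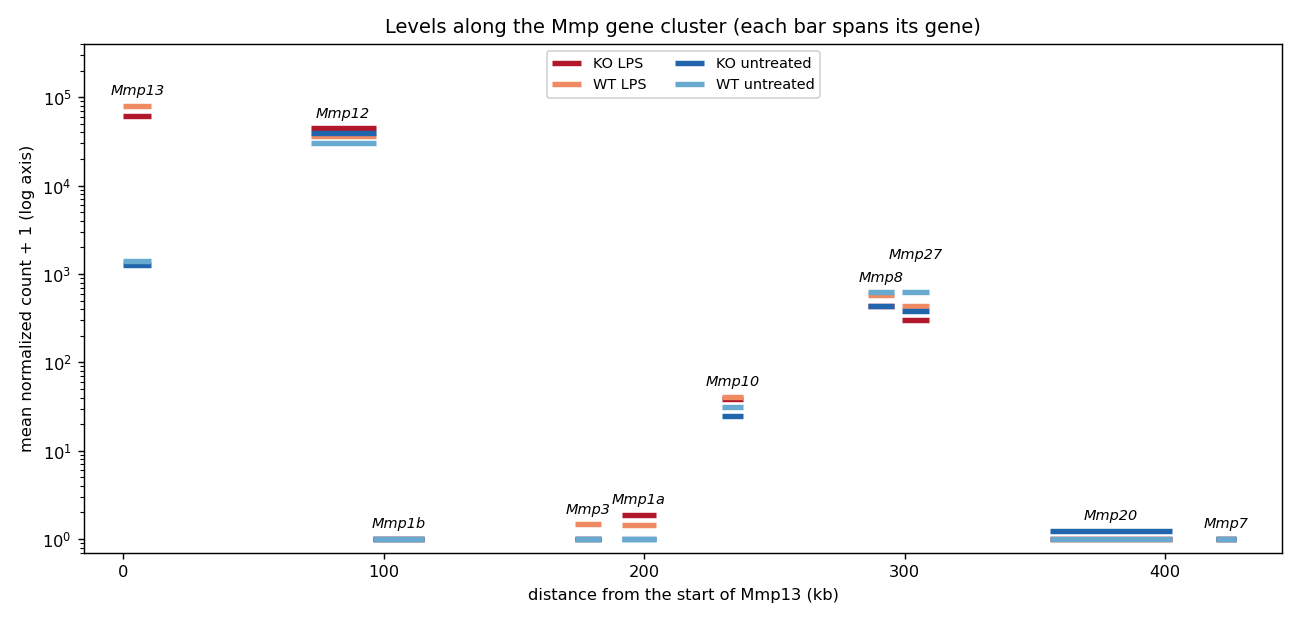
Mean normalized count plus 1 (log axis) of the 10 clustered *Mmp* genes against distance from the start of *Mmp13* in kb, where each bar spans its gene and each color is a group of 3 libraries. The LPS-treated and untreated bars lie far apart at *Mmp13* and close together at its neighbour *Mmp12*, and bars at 1 are genes without reads in that group.

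The promoters of these genes show what the cluster shares in sequence. RefSeq (GRCm38.p6) gave 55 promoters for 50 of the 80 members, each from 250 bases before to 50 after the annotated start. The AP-1 motif TGANTCA, which is the same on both strands, was found in 13 of the 55 promoters (23.6%), against 7.81% of 32851 promoters of all genes. It was present in 8 of the 10 clustered genes and missing from the windows of *Mmp8* and *Mmp27*. A match to the kB consensus on either strand was found in 3 of the 55 (5.45%), against 4.51% of all promoters. Of the 8 members called higher in both genotypes, 6 had a promoter in the table, of which *Mmp13* held an AP-1 match and *Mmp25* a kB match. The 1 member called lower that had a promoter in the table, *Adam19*, held both an AP-1 and a kB match at 1 of its annotated starts. The 250 bases before the start are given for *Mmp13*, for *Mmp25* and for *Mmp14*, which held no match. These 3 genes changed most after LPS among those with a promoter in the table. Capitals mark the AP-1 match of *Mmp13* (chr9:7272264-7272513, plus strand) and the kB match of *Mmp25* (chr17:23645270-23645519, minus strand), and *Mmp14* lies at chr14:54431348-54431597 on the plus strand.
Mmp13: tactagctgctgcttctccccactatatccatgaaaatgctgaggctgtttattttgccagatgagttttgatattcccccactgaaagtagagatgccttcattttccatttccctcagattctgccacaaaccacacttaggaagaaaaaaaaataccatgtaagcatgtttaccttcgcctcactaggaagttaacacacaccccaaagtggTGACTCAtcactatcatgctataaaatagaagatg
Mmp25: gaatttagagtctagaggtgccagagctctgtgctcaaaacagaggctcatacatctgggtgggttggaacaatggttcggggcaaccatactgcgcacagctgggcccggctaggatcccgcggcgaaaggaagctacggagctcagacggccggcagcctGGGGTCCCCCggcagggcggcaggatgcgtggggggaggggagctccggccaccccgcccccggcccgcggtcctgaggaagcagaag
Mmp14: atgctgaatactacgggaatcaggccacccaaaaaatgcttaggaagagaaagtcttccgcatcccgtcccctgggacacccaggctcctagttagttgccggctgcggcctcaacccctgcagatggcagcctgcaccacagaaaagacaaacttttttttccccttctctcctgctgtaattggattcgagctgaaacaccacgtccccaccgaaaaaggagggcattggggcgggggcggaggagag

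The AP-1 matches of 4 of the 8 clustered genes that hold one are set side by side. They are shown because genes with the motif at a like distance from the start differed in level and in response. The motif, in capitals, began 35 bases before the start in *Mmp13*, 44 in *Mmp12* (at 1 of its annotated starts), 46 in *Mmp3* and 63 in *Mmp10*. All 4 stretches are from the plus strand, at chr9:7272467-7272509, chr9:7347318-7347360, chr9:7445764-7445806 and chr9:7502267-7502309.
Mmp13: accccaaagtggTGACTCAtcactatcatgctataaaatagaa
Mmp12: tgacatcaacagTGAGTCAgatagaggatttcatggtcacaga
Mmp3: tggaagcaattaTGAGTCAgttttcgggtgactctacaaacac
Mmp10: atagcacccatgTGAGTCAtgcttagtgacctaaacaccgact

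Of these, *Mmp13* was called after LPS, *Mmp12* had a high level under both conditions, *Mmp10* was low, and *Mmp3* had hardly any reads. The clustered genes with a match that are not shown had no read or hardly any. Their motif began 63 bases before the start in *Mmp7* (at 1 of its annotated starts), 73 in *Mmp1a*, 93 in *Mmp1b* and 95 in *Mmp20*. A motif match is a description of the letters and does not show that a factor was bound.

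Among the *Adam* sheddases, *Adam17* rose after LPS and *Adam19* fell. *Adam17*, the enzyme that releases TNF and its receptors, had 12514, 12596 and 12330.2 normalized counts in KO LPS libraries, against 3856, 3905 and 4066 in KO untreated libraries. In WT libraries it had 10468, 10827 and 12120.5 after LPS, against 3863, 3856 and 4677 untreated. The changes of 1.66 (SE 0.06) in KO and 1.43 (SE 0.09) in WT macrophages on the log2 scale had adjusted p 3.19e-08 and 4.38e-07 in limma. They were 0.76 and 0.50 after quantile normalization, where the call was lost. *Adam10*, the related sheddase of Notch, did not change by more than the spread of its libraries, with 3261, 3295 and 2928 normalized counts in KO LPS libraries against 3195, 2951 and 2916 in KO untreated ones, and 2926, 2919 and 3109 in WT LPS libraries against 2917, 2941 and 3174 in WT untreated ones. After quantile normalization it changed by -0.63 in KO and -0.70 in WT macrophages. Exons of *Adam17* share 311 bases with *Iah1* on the opposite strand.

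*Adam8*, a sheddase of leukocytes, had 17542, 16467 and 15834 normalized counts in KO LPS libraries, against 26786, 27679 and 26981 in KO untreated libraries. In WT macrophages it had 19450.2, 19124 and 15689 after LPS, against 33638, 32572 and 27571 untreated. The groups did not overlap, and the change was -0.71 in KO and -0.79 in WT macrophages, smaller than 2-fold (adjusted p 2.915e-05 and 8.69e-05 in limma). *Adam9* went the other way, at 0.77 in KO and 0.91 in WT macrophages, also under the threshold (adjusted p 2.689e-05 and 2.431e-07). The direction of *Adam9* turned with quantile normalization, to -0.19 in KO and -0.06 in WT macrophages. With upper quartile scaling it was called higher in WT macrophages (1.09, adjusted p 8.414e-08 in limma). *Adam15* changed by -0.17 in KO and -0.07 in WT macrophages, and *Adam1a*, a gene best known from sperm, by -0.29 and -0.15 at low counts.

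*Adam19*, which is known for shedding neuregulin, had 12.1, 32.7 and 21.8 normalized counts in KO LPS libraries, against 221, 338 and 263 in KO untreated libraries. In WT libraries it had 54.9, 30.0 and 52.9 after LPS, against 466, 345 and 587 untreated. It fell by 3.65 (SE 0.33) in KO and by 3.33 (SE 0.26) in WT macrophages on the log2 scale, with adjusted p 1.158e-05 and 2.318e-06 in limma. *Adam33*, its close relative, had 53.2, 57.5 and 78.9 normalized counts in KO LPS against 103, 86.4 and 102 in KO untreated libraries, and 35.2, 76.4 and 102 in WT LPS against 156, 135 and 139 in WT untreated libraries. Its log2 change was -0.63 in KO (adjusted p 0.01343, not called) and -1.13 in WT macrophages (adjusted p 0.01149, called). Without WT LPS replicate 1, the lowest library, the WT value was -0.69 and no longer called. The difference between the genotypes in this change was 0.50, with an adjusted p of 0.9993 in the interaction test.

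*Adam22* is 1 of the *Adam* proteins that lack a working zinc site and act in cell adhesion, and the only member of that group to be tested. It had 27.8, 20.9 and 24.5 normalized counts in KO LPS libraries against 40.9, 43.6 and 59.4 in KO untreated libraries, and 35.2, 38.2 and 40.3 in WT LPS libraries against 36.0, 35.0 and 46.2 in WT untreated libraries. The KO groups did not overlap and the WT groups did. The change of -0.94 in KO macrophages (adjusted p 0.005465 in limma) was just under the fold threshold, and passed it without KO untreated replicate 1 (-1.04) or without KO LPS replicate 1 (-1.03). In WT macrophages it was -0.03 (adjusted p 0.8885), and the difference of -0.90 between genotypes had an unadjusted p of 0.007968 and an adjusted p of 0.9966.

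*Adamts4*, an aggrecanase that cuts the large proteoglycans aggrecan and versican, changed more after LPS than any other member. It had 2018, 2586 and 2255 normalized counts in KO LPS libraries, against 1.41, 2.57 and 6.44 in KO untreated libraries. In WT libraries it had 2920.3, 2712 and 3066 after LPS, against 2.08, 1.98 and 0.80 untreated. The ratio of the group means was 658 in KO and 1790 in WT macrophages, and the log2 fold changes were 9.15 (SE 0.36) and 10.15 (SE 0.21), with adjusted p 6.745e-08 and 5.247e-10 in limma. The untreated levels rest on 14 reads in KO and 7 reads in WT libraries, and over the alternatives the log2 change ranged from 8.12 to 9.60 in KO and from 8.78 to 10.78 in WT macrophages.

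Other aggrecanase relatives were low. *Adamts8* had no read in the 6 untreated libraries, but 15 reads in the KO LPS libraries and 19 reads in the WT LPS libraries. With a floor of 3 reads over the untreated group, it was at least 8.23-fold higher in KO LPS and at least 12.3-fold higher in WT LPS macrophages, although it lay under the filter on low counts. It was called higher in both genotypes when that filter was dropped. *Adamts1* had 14.5, 36.6 and 12.2 normalized counts in KO LPS libraries against 25.4, 93.2 and 38.7 in KO untreated libraries. Its log2 change of -1.22 was not called (adjusted p 0.06561 in limma), but with replicate number as a block the same change had an adjusted p of 0.002366. DESeq2 (-1.30, adjusted p 0.02327) and the fit of all 12 libraries (-1.22, adjusted p 0.04235) called it. It was also called without KO untreated replicate 1 (-1.63) and without KO LPS replicate 2 (-1.69), and in WT macrophages it changed by -0.59 (adjusted p 0.1715).

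*Adamts6* and *Adamts10*, which are related to each other and are known for roles in microfibrils of the matrix, went in opposite directions. *Adamts6* had 102, 56.2 and 54.4 normalized counts in KO LPS libraries against 14.8, 20.5 and 12.2 in KO untreated libraries, and 64.7, 57.3 and 50.1 in WT LPS against 20.8, 15.2 and 22.3 in WT untreated libraries. It rose by 2.06 (adjusted p 0.0003107 in limma) in KO and 1.53 (adjusted p 0.0002078) in WT macrophages on the log2 scale. *Adamts10* had 218, 178 and 159 normalized counts in KO LPS libraries against 667, 511 and 657 in KO untreated libraries, and 151, 169 and 171 in WT LPS against 572, 589 and 709 in WT untreated libraries. It fell by 1.72 in KO and by 1.92 in WT macrophages (adjusted p 7.999e-06 and 2.285e-07). For both genes the LPS-treated and untreated libraries did not overlap. *Adamts14*, a procollagen propeptidase, changed by 0.86 in KO (adjusted p 0.02261) and 0.41 in WT macrophages (adjusted p 0.08599), and its KO change was called without KO untreated replicate 2, at 1.13, and with upper quartile scaling or quantile normalization, at 1.04 and 1.03.

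Of the 4 inhibitors, *Timp1* rose after LPS, *Timp2* was the abundant one, and *Timp3* and *Timp4* were almost without reads. *Timp1*, which blocks most secreted *Mmp* enzymes, had 489.9, 649 and 577 normalized counts in KO LPS libraries, against 40.9, 49.6 and 42.2 in KO untreated libraries. In WT macrophages it had 961, 876 and 953 after LPS, against 56.1, 60.1 and 39.0 untreated. The change was 3.66 (SE 0.14) in KO and 4.17 (SE 0.16) in WT macrophages on the log2 scale, with adjusted p 5.799e-08 and 1.601e-08 in limma. *Timp2*, an inhibitor that also takes part in the activation of pro-MMP2 by MMP14, had 6218, 6644 and 7381 normalized counts in KO LPS libraries against 7791, 8539.6 and 9251 in KO untreated libraries, and 7952, 8533 and 8134 in WT LPS against 10064, 10233 and 11022 in WT untreated libraries. Its change of -0.34 in KO and -0.35 in WT macrophages had adjusted p 0.007867 and 0.0004153, and was well under 2-fold. *Timp3*, the inhibitor of ADAM17 and of the aggrecanases, had 11 reads over the 12 libraries, and *Timp4* had 1.

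The summed markers of fibroblasts and marrow stroma and of dendritic cells rose with LPS, while those of neutrophils overlapped between conditions. The summed level of 12 fibroblast and marrow stroma markers was 207 to 236 normalized counts in KO LPS libraries against 47.0 to 48.7 in KO untreated libraries, and 108 to 168 in WT LPS against 24.7 to 38.8 in WT untreated libraries. *Lox* and *Pdgfrb* made up most of that sum after LPS, while the collagen gene *Col1a1* had at most 20.6 normalized counts in any library. The 12 neutrophil markers summed to 430.2 to 1264 in KO LPS libraries against 294 to 626 in KO untreated libraries, and 335 to 734.5 in WT LPS against 276 to 650.0 in WT untreated libraries. *S100a8*, *S100a9* and *Ngp* made up most of that sum and had higher means after LPS in both genotypes. *Mpo*, *Ltf*, *Retnlg* and *Cxcr2* had lower means after LPS in both. *Ly6g* was at the floor throughout, at 0 in all LPS libraries and at most 1.71 in untreated ones. *Mmp8*, *Mmp9* and *Mmp25* are also genes of neutrophils. KO LPS replicate 1, which had the highest neutrophil sum, had the lowest *Mmp9* (979.7) and the highest *Mmp25* (1166) of the 3 KO LPS libraries. The 8 dendritic cell markers summed to 103 to 160 in KO LPS against 14.5 to 34.6 in KO untreated libraries, and 81.6 to 113 in WT LPS against 15.9 to 23.8 in WT untreated libraries. *Xcr1* and *Clec9a* made up most of that sum after LPS. *Flt3*, *Cd209a*, *Dpp4* and *Siglech* had at most 4.22 normalized counts in any library. The part of these markers in the changes above was not tested, and in bulk RNA fewer cells of a type and less RNA per cell cannot be told apart.

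Between the genotypes no member was called. In LPS-treated macrophages 0 of 27 members tested were called by limma, against a background of 0.168% of all tested genes called higher and 0.064% called lower in KO. In untreated macrophages 0 of 25 were called, against 0.0963% called higher and 0.0963% called lower. For the interaction of genotype and LPS 0 of 28 were called, against 0.00787% called higher and 0% called lower. edgeR and DESeq2 also called 0 members in each of these 3 tests, with the 2-fold threshold between genotypes and no fold threshold for the interaction. At an unadjusted p under 0.05 in limma, 1 member was higher and 8 were lower in LPS-treated KO macrophages. In untreated KO macrophages 1 was higher and 5 were lower, and 4 members had a negative interaction. The share of all tested genes at this unadjusted cut was not counted, so these counts have no background and do not show a result about the members. The median log2 difference of the members was -0.10 in LPS-treated and -0.20 in untreated macrophages, beside 0.00 and -0.01 over all genes tested.

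**Figure D5:**
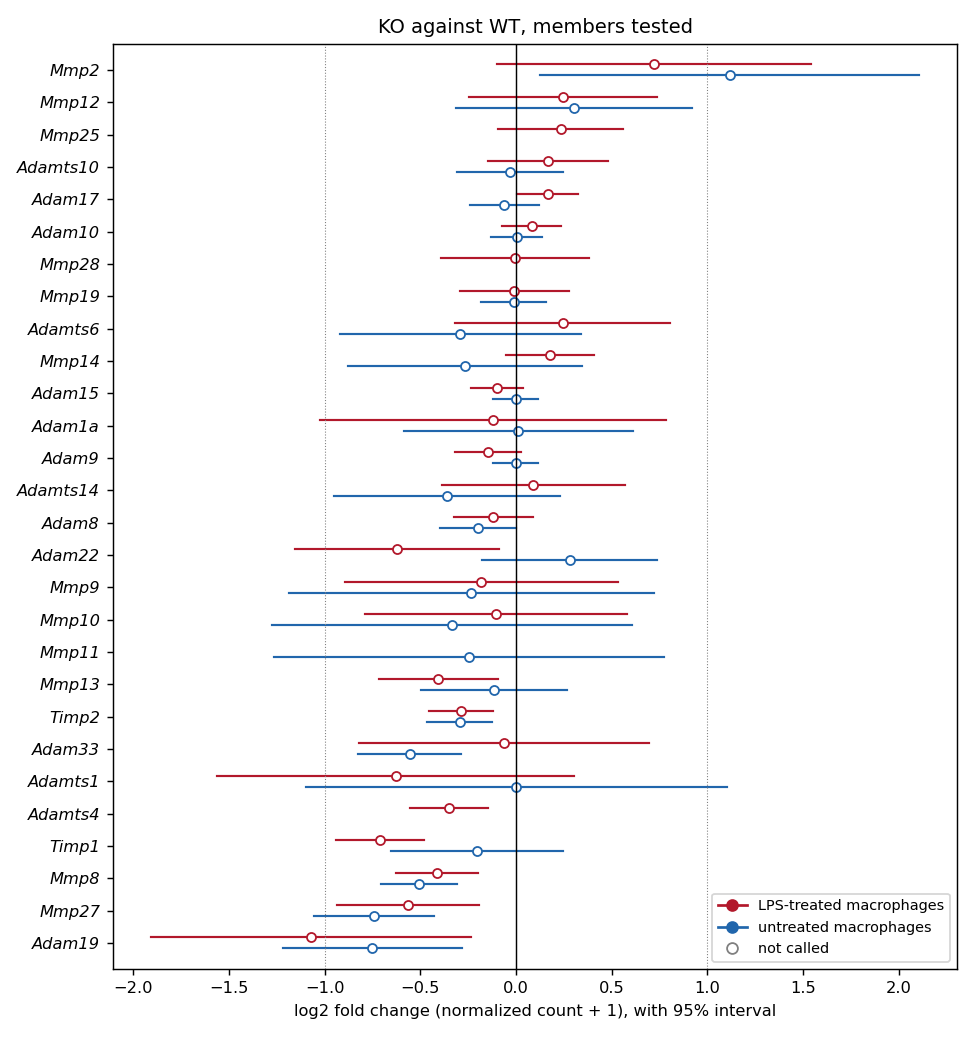
Log2 fold change of KO against WT in LPS-treated (upper symbol) and untreated (lower symbol) macrophages for the 28 members tested in either condition, with 95% intervals and dotted lines at a 2-fold change. All symbols are open because no member was called, and the intervals of *Timp1* after LPS (-0.94 to -0.48) and of *Mmp8* untreated (-0.70 to -0.31) lie below 0.

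*Timp1* was the member with the smallest p-value. In LPS-treated macrophages its 3 KO libraries, at 489.9, 649 and 577 normalized counts, were all below the 3 WT libraries, at 961, 876 and 953. The log2 difference was -0.71 (SE 0.10) with an adjusted p of 0.01607 in limma, 0.01615 in edgeR and 5.475e-06 in DESeq2, and it missed the call only by its size. Over the alternatives it ranged from -0.80 to -0.60, with adjusted p from 5.475e-06 to 0.1715. The adjusted p was over 0.05 without WT LPS replicate 1 (0.07422), WT LPS replicate 2 (0.06847) or KO LPS replicate 3 (0.07863), in the fit of all 12 libraries (0.05428) and with a variance that did not follow expression (0.1715). When the fold threshold was dropped, *Timp1* was the only member limma called, and the background was 0.312% of tested genes lower in KO. In untreated macrophages the log2 difference of *Timp1* was -0.20 (adjusted p 0.7912), and the interaction of -0.51 had an unadjusted p of 0.03852 and an adjusted p of 0.9993. The other 3 members with an unadjusted p under 0.05 for the interaction were *Mmp25* (-1.17), *Adam22* (-0.90) and *Adamts4*, and *Mmp25* and *Adamts4* have few untreated reads.

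*Mmp8* and *Mmp27*, which are neighbours in the chromosome 9 cluster, had lower values in KO macrophages under both conditions. *Mmp8* had 443, 384 and 464 normalized counts in KO LPS libraries against 577, 603 and 537 in WT LPS libraries, and 385, 460.1 and 463 in KO untreated against 620.0, 649.5 and 583 in WT untreated libraries. Its log2 difference was -0.41 (adjusted p 0.1085 in limma) after LPS and -0.51 (adjusted p 0.05448) untreated. *Mmp27*, known in humans as an enzyme kept inside the cell, had 351, 216 and 344 normalized counts in KO LPS libraries against 428, 426 and 462 in WT LPS libraries, and 365, 310.4 and 464 in KO untreated against 630.4, 679 and 574 in WT untreated libraries. The log2 difference was -0.56 (adjusted p 0.2215) after LPS and -0.74 (adjusted p 0.072) untreated. For both genes and both conditions the KO libraries lay below the WT libraries without overlap, but no test with the fold threshold called them. In untreated macrophages, without the fold threshold, DESeq2 gave an adjusted p under 0.05 to 5 members, all lower in KO (*Mmp27* 3.141e-05, *Mmp8* 0.0004071, *Adam19* 0.004087, *Timp2* 0.01663, *Adam33* 0.03612). edgeR and the main limma fit gave it to 0. The share of all tested genes that DESeq2 called in this way was not counted, so the 5 have no background to stand against. With replicate number as a block, limma gave an adjusted p of 0.0251 to *Mmp8* and 0.03749 to *Mmp27* there, although the numbers were not found to pair KO with WT libraries.

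Counted by overlap alone, all 3 KO libraries were below all 3 WT libraries for 7 of 27 members after LPS (25.9%), against a background of 7.73% of all tested genes. These were *Adam15*, *Adam22*, *Adamts4*, *Mmp8*, *Mmp27*, *Timp1* and *Timp2*. They were above the WT libraries for 2 members, *Adam17* and *Mmp2*, against a background of 8.35%. In untreated macrophages 5 of 25 members (20%) were lower without overlap, against a background of 7.98%, and 1, *Mmp2*, was higher, against a background of 8.41%. The 5 were *Adam19*, *Adam33*, *Mmp8*, *Mmp27* and *Timp2*. LPS-treated and untreated libraries with the same replicate number within a genotype varied together, so the counts under the 2 conditions do not stand for separate evidence.

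The 95% interval of the difference between genotypes differed in width among the members. In untreated macrophages the interval was narrow for some abundant *Adam* genes, running from -0.13 to 0.14 for *Adam10*, from -0.12 to 0.12 for *Adam9*, from -0.12 to 0.12 for *Adam15* and from -0.24 to 0.12 for *Adam17*, on the log2 scale. For *Mmp14* it ran from -0.88 to 0.34 in untreated and from -0.05 to 0.41 in LPS-treated macrophages. After LPS it ran from -0.72 to -0.09 for *Mmp13* (adjusted p 0.3201) and from -0.55 to -0.14 for *Adamts4* (adjusted p 0.1587). It was wide for *Adamts1* (-1.10 to 1.10 untreated), *Mmp9* (-1.19 to 0.72 untreated) and *Mmp12* (-0.31 to 0.92 untreated). *Mmp2* had the highest difference, 1.12 in untreated macrophages (adjusted p 0.3971), at 25.4, 7.70 and 12.9 normalized counts in KO against 5.54, 7.26 and 4.78 in WT libraries, which is 63 against 25 reads. The summed stroma markers were also higher in KO than in WT macrophages under both conditions, by the sums given above. After LPS, *Lox* (mean 92.8 in KO against 54.1 in WT) and *Postn* (31.9 against 13.4) carried most of this difference. *Col3a1*, *Dcn* and *Fbln1* were lower in KO LPS macrophages. In untreated macrophages all means were low, the highest being *Col1a1* at 13.9 in KO against 8.59 in WT. *Pdgfrb* and *Cxcl12* were lower in KO there. The 6 endothelial markers summed to 1993 to 2274 in KO LPS against 1358 to 1746 in WT LPS libraries and to 2039 to 2227 in KO untreated against 1242 to 1553 in WT untreated libraries. *Vwf* carried most of this difference, with a mean of 1052 in KO LPS against 619 in WT LPS and 2061 in KO untreated against 1282 in WT untreated macrophages. *Cdh5* was lower in KO under both conditions. *Kdr* was lower in KO untreated and higher in KO LPS macrophages, and *Pecam1* the reverse. The part of the stroma and endothelial markers in the differences between genotypes was not tested.

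The genes that activate, block or are cut by these enzymes were taken from lists made with earlier results of these data known. Their counts are therefore descriptive and are no independent test. They are given beside the same background as above (17.3% of all tested genes called higher and 16.6% lower in KO, 17.1% higher and 16.9% lower in WT macrophages). Of the convertases and cofactors of ADAM17 and ADAM10, 9 were tested, and 4 rose and 1 fell after LPS in KO macrophages, against 5 and 1 in WT macrophages. *Furin*, which removes the propeptide of many *Adam* and membrane-type *Mmp* enzymes, rose by 1.81 in KO and 1.94 in WT macrophages on the log2 scale. *Rhbdf2*, the iRhom2 gene whose product carries ADAM17 to the cell surface, rose by 3.30 and 3.35, and *Tspan14*, a tetraspanin partner of ADAM10, fell by 2.45 and by 2.30. Of 7 tested genes of the plasminogen system, another route to active *Mmp* enzymes, 4 rose and 1 fell in both genotypes. *Plau* (urokinase) changed by -2.24 in KO and -2.47 in WT macrophages. *Serpinb2* (PAI-2) rose in both, and was lower in LPS-treated KO than in LPS-treated WT macrophages (-1.10, adjusted p 0.00831 in limma).

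Of 24 tested sheddase substrates, 16 rose and 3 fell after LPS in KO, and 17 rose and 3 fell in WT macrophages, beside the background of 17.3% and 16.6% in KO and 17.1% and 16.9% in WT macrophages. *Tnf* rose by 6.47 in KO and 6.21 in WT macrophages and *Cd40* by 7.70 and 7.68, while *Il6ra* fell by 3.12 and by 3.46 and *Cd163* by 2.92 and by 2.58. *Vcam1*, an adhesion molecule shed by ADAM17, was lower in untreated KO than in untreated WT macrophages (-3.08, adjusted p 0.02135 in limma). Of the matrix substrates, 4 of 11 tested rose and 0 fell in KO macrophages, and 3 of 8 rose and 1 fell in WT macrophages. *Vcan* (versican), a substrate of ADAMTS4, rose by 8.28 in KO and 8.80 in WT macrophages. Of 8 tested inhibitors and partners other than *Timp* genes, 2 rose and 1 fell in KO, and 3 rose and 1 fell in WT macrophages, with *Itgav* at 2.49 and 2.63. Of 4 tested relatives outside the naming rule, 2 rose in both genotypes, among them *Bmp1*, the procollagen C-proteinase, by 4.87 and 5.76.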

How the data were processed

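The authors isolated RNA with TRIzol, made poly(A) libraries, trimmed reads with Trimmomatic, aligned them with STAR, counted them per gene with featureCounts and deposited values normalized with DESeq2 (versions 0.39, 2.7.4a, 2.0.1 and 1.32.0 for Trimmomatic, STAR, Subread and DESeq2, per the submitters' processing notes). The deposited values are normalized counts, that is a signal in which reads are divided by 1 size factor per library, and 100% of them were whole reads within a tolerance of 1e-06 after the factor was taken out. The genome build of the annotation used here is GRCm38. Strand was not stated to be kept, so genes that overlap on opposite strands cannot be told apart.

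The 12 libraries fall into 4 groups of 3, described as biological triplicates. The main test was limma 3.58.1 (R 4.3.3) with a variance trended on expression, on log2(normalized count + 1), for genes whose mean over the libraries compared reached 10. P-values were adjusted by Benjamini-Hochberg over all genes tested, and genes were called at an adjusted p under 0.05 and a log2 fold change of at least 1 in size. The interaction of genotype and LPS used all 12 libraries and no fold threshold. Fold changes on this scale understate changes of genes with low counts. Intervals are 95% intervals. Gene levels are compared per kb of exon. Alternatives were other pseudocounts, filters and scalings, edgeR 4.0.16 and DESeq2 1.42.0 on the recovered reads, a replicate block, and leaving out each library. The fits were tested on simulated data.

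Same-numbered LPS-treated and untreated libraries of a genotype varied together (correlation of deviations 0.167 to 0.331, against at most 0.0107 for other numbers). The numbers were therefore read as pairing them, although the paper describes its comparisons as unpaired. Same-numbered KO and WT libraries did not vary together throughout (-0.197 to 0.241). The block changed the LPS call of *Mmp11* and *Adamts1*. Named genes were the members called in any test, the 10 members with the highest mean, all 4 *Timp* genes, *Rasgef1b*, up to 4 called genes of each companion list per comparison, and members that the account of the roles needed. The members and lists were chosen with earlier results of these data known. The 95% intervals come from the limma fits. The lower bounds given for *Adamts8* rest on a floor of 3 reads and leave out the spread among libraries.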

Additional observations from a re-analysis of the deposited data

How the results depend on the processing

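No setting that kept the fold threshold called a member between genotypes, and none called a member for the interaction. Without the fold threshold, 1 member was called in LPS-treated macrophages (*Timp1*). The number called lower after LPS in KO macrophages, 2, became 4 with quantile normalization, 8 without the fold threshold and 2 to 4 when 1 library was left out, the 4 being without KO untreated replicate 1. In WT macrophages the number called lower, 3, became 7 without the fold threshold and ranged from 2 to 4 when 1 library was left out. The number called higher was 8 to 9 in KO and 8 in WT macrophages when 1 library was left out. Quantile normalization ended the call of *Adam17* in both genotypes and called *Adam8* lower (-1.69 in KO, -1.81 in WT) and *Timp2* lower (-1.26 in KO, -1.34 in WT). It moved the median of all genes by -0.14 in KO and -0.13 in WT macrophages, and upper quartile scaling by 0.19 and 0.17. *Adam33* in WT macrophages lost its call with upper quartile scaling (-0.95) and quantile normalization (-0.82). Upper quartile scaling also called *Adam9* higher in WT (1.09) and *Adamts14* higher in KO macrophages (1.04). Without the filter on low counts 9 members were called higher in each genotype (*Adamts8* being added) and 3 lower in KO macrophages (*Mmp23* being added). A mean of at least 50 left 6 members called higher in each genotype. No called value changed sign. With replicate number as a block, *Mmp11* (-1.17, adjusted p 0.01901 in limma) and *Adamts1* (-1.22, adjusted p 0.002366) were also called lower, and no other member's call at the fold threshold changed. The cause of these differences was not tested. Low read numbers limit the untreated levels of *Adamts4* and *Mmp25* and all of *Mmp2*, *Mmp11* and *Adamts8*.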
